A study of Mus musculus with 8 samples.

Results

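The genes described here encode paralogous or alternative small proteins of the respiratory chain, together with factors that act on them: Ndufa4l2 and its paralogue Ndufa4, the cytochrome c oxidase subunits Cox4i1, Cox4i2, Cox7a1 and Cox7a2, the supercomplex factor Cox7a2l, the hypoxia-inducible domain proteins Higd1a and Higd2a, and the mitochondrial protease Lonp1. They were selected on their measured difference between hypoxia and normoxia in these same arrays, and on being their paralogues or partners. That difference is therefore given as a description and carries no p-value. Of the 10 genes, 9 had at least 1 row (probe set) that named them and no other gene, with 78 such rows among the 641130 rows of the array. These 9 were among the 21656 genes that had a row of their own. Cox7a1, the subunit 7A form of heart and skeletal muscle, was named by no row, and no value is given for it.

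Primary mouse embryonic fibroblasts from a commercial source were kept for 24 h at 1% oxygen (hypoxia, 4 arrays) or at atmospheric oxygen (normoxia, 4 arrays), and total RNA was hybridised to Affymetrix Mouse Exon 1.0 ST arrays. All 8 dishes shared the medium, 5% CO2 and 37 °C, and no genotype, strain or embryonic age was given for the cells. The labels give 4 replicates per group and the methods describe replicates as biological, but whether the dishes came from separate cell isolates was not stated. The adjusted p-values therefore cover the spread between these dishes. In RNA from a whole dish, a change in the cells present and a change in RNA per cell cannot be told apart.

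Complex IV, cytochrome c oxidase, is the last enzyme of the mitochondrial respiratory chain and passes electrons to oxygen. Several of its nuclear-encoded subunits exist as paralogues, of which one form is widespread and the other is restricted to certain tissues or conditions. In human cells, the hypoxia-inducible factor HIF-1 is known to raise COX4I2 and the LON protease, and LON then degrades the COX4I1 protein. NDUFA4L2 is a HIF-1 target reported to lower complex I activity, whereas NDUFA4, first assigned to complex I, is now counted as a subunit of complex IV. HIGD1A is another HIF-1 target that binds the respiratory chain, and HIGD2A, its paralogue, acts in the assembly of complex IV and supercomplexes.

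Because HIF binds a short core motif, the promoter windows of the pair Higd1a and Higd2a and of Lonp1 are shown, the pair being the paralogues that differed most among those with a window. The windows are from RefSeq (GRCm38.p6), hold 300 bases around the gene start, run 5′ to 3′ along the gene's strand, and were found for 7 of the 10 genes, with no entry for Ndufa4l2, Cox4i1 and Cox4i2. Capitals mark the letters ACGTG or GCGTG, read on both strands, where overlapping matches form 1 stretch. The Higd1a window lies at chr9:121857747-121858046, minus strand, that of Higd2a at chr13:54589981-54590280, plus strand, and that of Lonp1 at chr17:56626854-56627153, minus strand.
Higd1a: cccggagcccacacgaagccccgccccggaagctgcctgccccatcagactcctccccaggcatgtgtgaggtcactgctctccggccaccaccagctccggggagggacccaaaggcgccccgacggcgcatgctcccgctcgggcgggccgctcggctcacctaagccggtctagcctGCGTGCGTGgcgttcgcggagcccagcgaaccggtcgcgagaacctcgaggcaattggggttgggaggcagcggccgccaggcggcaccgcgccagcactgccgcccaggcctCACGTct
Higd2a: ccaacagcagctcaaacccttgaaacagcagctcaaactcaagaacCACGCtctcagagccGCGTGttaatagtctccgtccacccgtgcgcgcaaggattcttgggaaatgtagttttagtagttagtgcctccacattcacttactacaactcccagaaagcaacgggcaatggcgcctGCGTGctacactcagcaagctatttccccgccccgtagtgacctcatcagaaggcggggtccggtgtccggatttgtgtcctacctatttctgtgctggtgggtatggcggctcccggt
Lonp1: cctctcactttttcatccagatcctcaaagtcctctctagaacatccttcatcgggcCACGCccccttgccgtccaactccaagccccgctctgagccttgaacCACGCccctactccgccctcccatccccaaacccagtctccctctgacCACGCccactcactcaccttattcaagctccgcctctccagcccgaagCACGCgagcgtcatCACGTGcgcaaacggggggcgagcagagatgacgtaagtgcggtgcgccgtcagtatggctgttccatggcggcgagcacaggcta
Higd1a and Higd2a each held 3 matches, and Lonp1 held 6. Of all 32851 windows in the table, 43.8% held at least 1 match, 8.93% at least 3 and 0.694% at least 6. Of the other genes, Cox7a1 held 3 matches, Ndufa4 and Cox7a2 held 1 each, and Cox7a2l held none. The motif count is a description of these windows and was the same in Higd1a and Higd2a.

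As a measure of rows without transcript, 3489 rows of 1257 olfactory, vomeronasal and trace amine receptor genes, which fibroblasts are not known to use, were taken as a reference. Their median log2 intensity was 0.98 in normoxia and 1.31 in hypoxia, and their 95th percentile was 3.33 and 3.22. The array medians lay between 2.38 and 2.44, but the spread of log2 values differed by group. Every hypoxia array had a narrower interquartile range (2.51 to 2.61) than any normoxia array (2.77 to 2.90). What this narrower spread does to the difference of single bright or dim rows was not tested. The correlations between arrays over all rows were 0.923 to 0.944 within normoxia and 0.859 to 0.878 within hypoxia. Between the groups they were 0.8761 to 0.9055, so hypoxia arrays correlated no better with one another than with normoxia arrays. Each gene was summarised by averaging the log2 intensity of its rows that were at or above the median of all rows (2.36), which kept 68 of the 78 rows. Over all 18848 genes tested the median difference was -0.19 on the log2 scale. No rows of any 2 genes are compared by level, since probe sets differ in their response.

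Ndufa4l2 rose the most of the genes described here. Its gene value, from 5 of 6 rows, was 2.73, 2.02, 2.06 and 2.42 on normoxia arrays 1 to 4 and 6.32, 6.07, 6.26 and 6.19 on hypoxia arrays 1 to 4. Every hypoxia array lay far above every normoxia array, and the hypoxia arrays were close to one another. The mean went from 2.30 ± 0.33 to 6.21 ± 0.11 (SD, n = 4 per group), a log2 difference of 3.91 ± 0.17 (SE of the limma fit), or 15-fold in intensity. The normoxia means of all 6 rows lay within the range of the receptor rows, so that fold rests on a denominator in which transcript was not distinguished from background. In addition, 3 rows (4567228, 4861352 and 5384212) had normoxia means of 2.25, 1.85 and 2.03 and passed the brightness filter only through their hypoxia values. With all 6 rows the difference was 3.11.

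The rise of Ndufa4l2 was spread over its rows. In 5 of the 6 rows all hypoxia arrays exceeded all normoxia arrays, with differences of 2.65 to 5.44. In the brightest (probe set 4567228) the normoxia values were 1.79, 2.47, 1.98 and 2.75 and the hypoxia values 8.34, 7.81, 7.31 and 7.28. This row moved from the middle of its arrays, at a mean relative rank of 46.5 on a scale of 0 to 100, to 97.5. The dimmest row (5420320) did not share the rise, with a difference of -0.85, overlapping groups and both means in the receptor range.

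**Figure D1:**
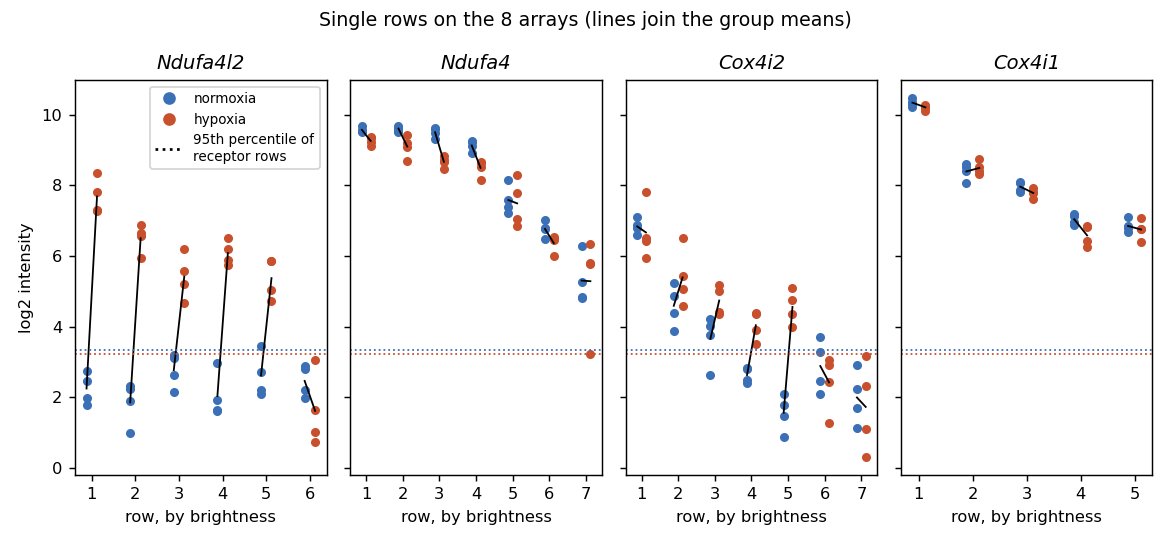
Log2 intensity (vertical axis) of each row of Ndufa4l2, Ndufa4, Cox4i2 and Cox4i1, ordered by brightness (horizontal axis), on 4 normoxia arrays (blue) and 4 hypoxia arrays (orange), with black lines joining group means and dotted lines at the 95th percentile of receptor rows. Ndufa4l2 left the receptor range in 5 of 6 rows, Cox4i2 rose in its middle rows but not in its brightest, and the 4 brightest Ndufa4 rows shifted down.

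Ndufa4, the constitutive paralogue, showed the opposite sign. Its gene value, from 7 of 7 rows, was 8.13, 8.43, 8.15 and 8.12 in normoxia and 7.21, 7.86, 7.97 and 8.18 in hypoxia. Hypoxia array 1 was low, while hypoxia array 4 lay above 3 of the normoxia arrays, so the groups overlapped. The difference was -0.40 ± 0.20 (SE), and without hypoxia replicate 1 it was -0.20, close to the median of all genes.

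The single rows of Ndufa4 divided by brightness. All 7 differences were negative, and in the 4 brightest rows every hypoxia array lay below every normoxia array. These differences were -0.31, -0.51, -0.84 and -0.63, from the brightest to the fourth brightest. The row with the widest of these gaps (5177891) read 9.61, 9.31, 9.48 and 9.61 in normoxia and 8.47, 8.82, 8.71 and 8.66 in hypoxia. In the other 3 rows the groups overlapped, with differences of -0.40 to -0.02, and in the dimmest (5374114) hypoxia array 1 stood at 3.22 while the other hypoxia arrays read 5.78 to 6.35. That reading enters the low gene value of hypoxia array 1.

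The ratio of Ndufa4l2 to Ndufa4 was taken within each array and expressed relative to its normoxia mean, so that only its change is read. It was 0.50, -0.51, -0.18 and 0.20 in normoxia and 5.01, 4.12, 4.19 and 3.92 in hypoxia. No hypoxia array came near the normoxia arrays, and hypoxia array 1 was highest, where Ndufa4 was lowest. The log2 ratio changed by 4.31 ± 0.33 (SE from the pooled group SD, as for all ratios), or 19.8-fold. As deposited, 3.91 of it came from Ndufa4l2 and 0.40 from Ndufa4. With each array centred on its median gene value, the differences were 4.095 for Ndufa4l2 and -0.2136 for Ndufa4, and the ratio change stayed the same. The fold again rests on normoxia values of Ndufa4l2 within the receptor range. Without the brightness filter the ratio change was 3.52.

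Cox4i2, the subunit 4 isoform of lung and of hypoxic cells, was also higher, but by less. Its gene value, from 6 of 7 rows, was 3.97, 3.50, 3.60 and 3.70 in normoxia and 5.07, 4.39, 4.50 and 4.57 in hypoxia. The groups did not overlap, although the highest normoxia array and the lowest hypoxia array were close. The mean went from 3.69 ± 0.20 to 4.64 ± 0.30 (SD, n = 4 per group), a difference of 0.94 ± 0.18 (SE), or 1.92-fold. Without hypoxia replicate 1, the highest array, it was 0.80.

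The rows of Cox4i2 did not move together. In 3 of 7 rows, those that follow the 2 brightest, all hypoxia arrays exceeded all normoxia arrays, with differences of 1.08, 1.41 and 3.0. The last of these (4933166) read 1.79, 0.89, 2.10 and 1.46 in normoxia, within the receptor range, and 4.0, 4.37, 5.09 and 4.76 in hypoxia. Its normoxia mean was 1.56, so it passed the brightness filter only through its hypoxia values. The brightest row (4691018) read 6.87, 6.60, 7.09 and 6.78 in normoxia and 7.80, 6.51, 5.93 and 6.42 in hypoxia. There hypoxia array 1 was above all normoxia arrays and the other hypoxia arrays were below them all, with a mean difference of -0.17. The 2 dimmest rows had differences of -0.46 and -0.27 and stayed within the receptor range in both groups. Which exon each row covers was not given in the table used here.

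Cox4i1, the widespread subunit 4 isoform, gave 8.0, 8.15, 8.15 and 8.16 in normoxia and 7.88, 7.83, 8.07 and 8.06 in hypoxia. The hypoxia arrays sat slightly lower and overlapped with normoxia array 1. The difference was -0.15 ± 0.11 (SE), close to the median of all genes, and it turned to 0.03 when each array was centred on its median gene value. Of its 5 rows, 1 (5187409) had all hypoxia arrays below all normoxia arrays, with a difference of -0.46, and the brightest differed by -0.13.

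The log2 ratio of Cox4i2 to Cox4i1, relative to its normoxia mean, was 0.40, -0.23, -0.13 and -0.04 in normoxia and 1.61, 0.98, 0.86 and 0.93 in hypoxia. All hypoxia arrays were above all normoxia arrays, with hypoxia array 1 apart from the rest. The change was 1.10 ± 0.22 (SE), or 2.14-fold. It became 0.73 when only rows at or above the 75th percentile of row means (log2 3.89) were used and 1.49 when the gene value was the median over rows.

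Lonp1, the matrix protease that degrades COX4I1 protein in hypoxic human cells, gave 4.12, 4.39, 4.26 and 4.19 in normoxia and 4.67, 4.30, 4.37 and 4.25 in hypoxia, from 18 of 19 rows. The groups overlapped, with hypoxia array 1 highest and the other hypoxia arrays inside the normoxia range. The difference was 0.16 ± 0.13 (SE), and without hypoxia replicate 1 it was 0.09. Its rows scattered from -0.90 to 0.97, with 12 of 19 positive and 1 (5325598) in which the hypoxia arrays were all above.

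Higd1a rose to an extent between those of Ndufa4l2 and Cox4i2. The normoxia means of 5 of its 14 rows lay within the receptor range and those of the other 9 above it. Its gene value, from 12 of 14 rows, was 5.21, 5.58, 5.46 and 5.21 in normoxia and 7.83, 7.62, 8.11 and 8.28 in hypoxia. The groups lay wide apart. The mean went from 5.36 ± 0.18 to 7.96 ± 0.29 (SD, n = 4 per group), a difference of 2.60 ± 0.17 (SE), or 6.05-fold.

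All 14 rows of Higd1a had a positive difference, from 0.22 to 4.01, and in the 11 brightest every hypoxia array exceeded every normoxia array. The brightest (4306539) read 8.59, 8.43, 8.80 and 8.98 in normoxia and 10.60, 10.62, 10.59 and 10.55 in hypoxia. The hypoxia arrays agreed closely there, and the difference of 1.89 was the lowest of these 11 rows. The 11th row (4719237) had the greatest difference, 4.01, from a normoxia mean in the receptor range. In the 3 dimmest rows the groups overlapped and both means lay within that range.

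Higd2a, the paralogue, gave 5.83, 6.92, 6.79 and 6.68 in normoxia and 6.85, 6.37, 6.74 and 6.54 in hypoxia, from 5 rows. Normoxia array 1 was low and the rest overlapped, with a difference of 0.07 ± 0.24 (SE). None of its rows separated the groups, and their differences ran from -0.27 to 0.47. The dimmest row (4513775) read 1.89 on normoxia array 1 against 4.33 to 4.79 on the other normoxia arrays. Relative to the normoxia mean, the log2 ratio of Higd1a to Higd2a was 0.58, -0.15, -0.15 and -0.28 in normoxia and 2.17, 2.45, 2.56 and 2.93 in hypoxia. Every hypoxia array was thus above every normoxia array, and the change was 2.53 ± 0.25 (SE), or 5.76-fold.

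**Figure D2:**
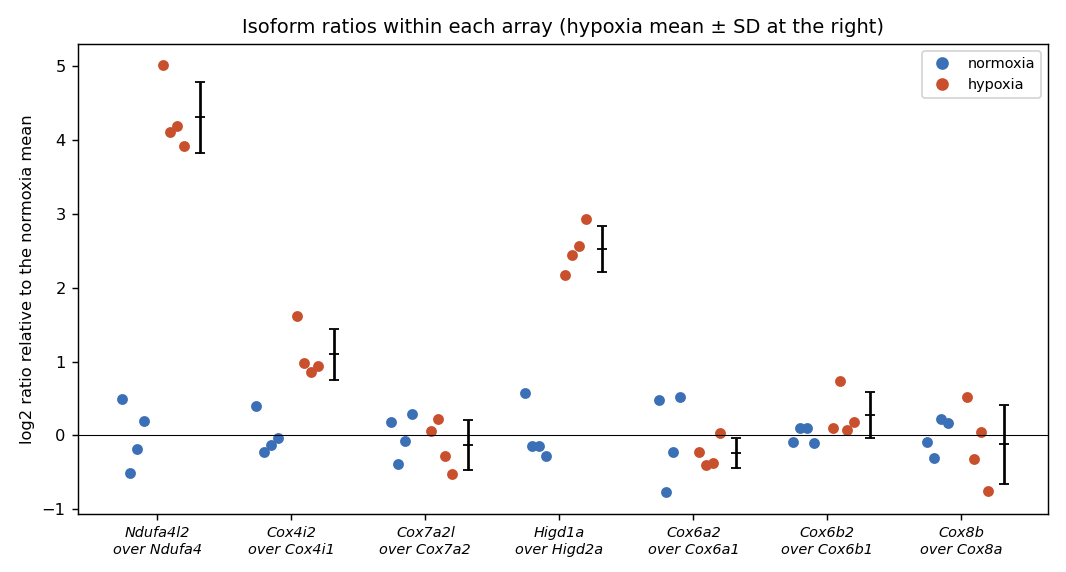
Log2 ratio of paralogues within each array relative to the normoxia mean (vertical axis), for 4 normoxia (blue) and 4 hypoxia (orange) arrays, with the hypoxia mean ± SD at the right of each pair. The ratios led by Ndufa4l2, Cox4i2 and Higd1a lay above all normoxia arrays (changes of 4.31, 1.10 and 2.53), and the other 4 pairs overlapped.

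The subunit 7A family showed no common shift. Cox7a2, its widespread form, gave 7.10, 7.72, 7.41 and 7.02 in normoxia and 7.12, 7.08, 7.48 and 7.87 in hypoxia, from 5 of 8 rows. The arrays of the groups were interleaved, with a difference of 0.07 ± 0.22 (SE). Its 2 brightest rows went in opposite directions. In the brightest (5106152) every hypoxia array was below every normoxia array, with a difference of -0.37, and in the next (5553022) the difference was 0.44 with overlapping groups.

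Cox7a2l, which joins complexes III and IV in supercomplexes, gave 8.28, 8.33, 8.33 and 8.31 in normoxia and 8.18, 8.30, 8.19 and 8.35 in hypoxia, from 5 of 7 rows. The spread was narrow and the groups overlapped, with a difference of -0.06 ± 0.10 (SE). That sign turned to a difference of 0.13 when arrays were centred and 0.21 with the median over rows. Its rows again disagreed, as 1 (5547652) had all hypoxia arrays above, with a difference of 0.53, and 1 (5063323) had all below, with -0.57. A further 4 rows named Cox7a2l together with the gene model EG629383 and were not used. Their groups overlapped, with differences of -0.18 to 0.03. The log2 ratio of Cox7a2l to Cox7a2 changed by -0.13 ± 0.23 (SE), with overlapping groups.

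**Figure D3:**
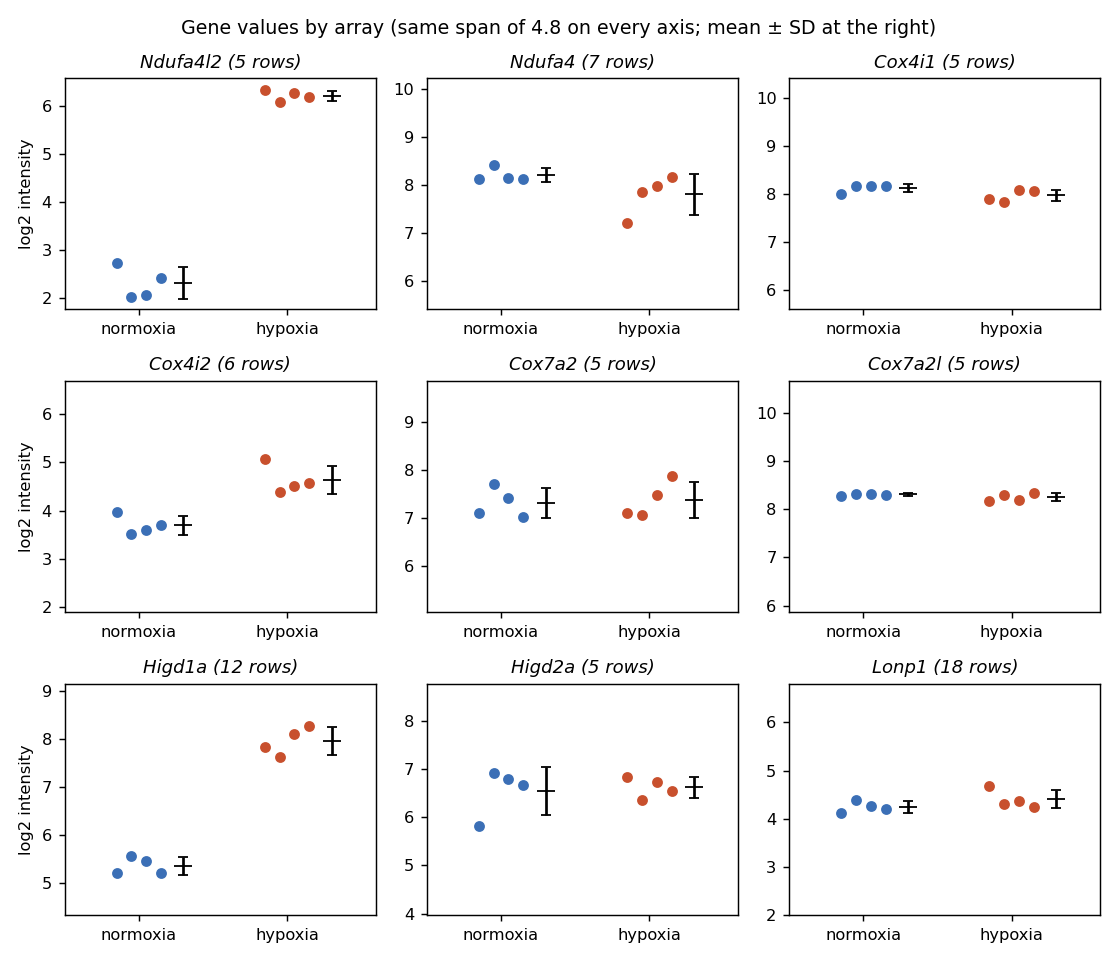
Gene value (mean log2 intensity over rows, vertical axis) of the 9 genes on 4 normoxia (blue) and 4 hypoxia (orange) arrays, with mean ± SD at the right of each group and the same span on every vertical axis. Ndufa4l2, Higd1a and Cox4i2 separated the groups (differences of 3.91, 2.60 and 0.94), and the other 6 genes overlapped.

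Over the 9 genes, 3 passed the limma threshold (adjusted p under 0.05 over all genes) as higher, Ndufa4l2, Higd1a and Cox4i2, and 0 as lower. Among all genes 0.531% passed as higher, 0.796% as lower and 1.33% in either direction. For the same 3 genes all hypoxia arrays lay above all normoxia arrays, which held for 1.87% of all genes, and for 0 genes all lay below, which held for 14.5%. As the contrast chose the genes, nothing is read from these counts. Ndufa4l2 and Higd1a passed in all 16 alternative analyses. Cox4i2 passed in 5 of 16 and no longer passed when any 1 of the 8 arrays was left out.

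Over all 78 rows, 21 (26.9%) had every hypoxia array above every normoxia array and 7 (8.97%) had every hypoxia array below, beside 3.79% and 3.53% of all rows of the array. Of the 21 rows, 19 belonged to Ndufa4l2, Cox4i2 and Higd1a. The 51 rows of the other 6 genes had 2 above (3.92%) and 7 below (13.7%). All 7 were rows kept for the gene value, where they were 15.6% of 45, and among all kept rows of the array 5.80% were below and 2.49% above. Of these 7 rows, 4 were those of Ndufa4. The kept rows of the array were not matched to these rows in brightness, and at the gene level 14.5% of all genes had all hypoxia arrays below. Rows of the same gene are not independent of each other. The genes were chosen on this same contrast, so nothing is read from these row counts and shares either.

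**Figure D4:**
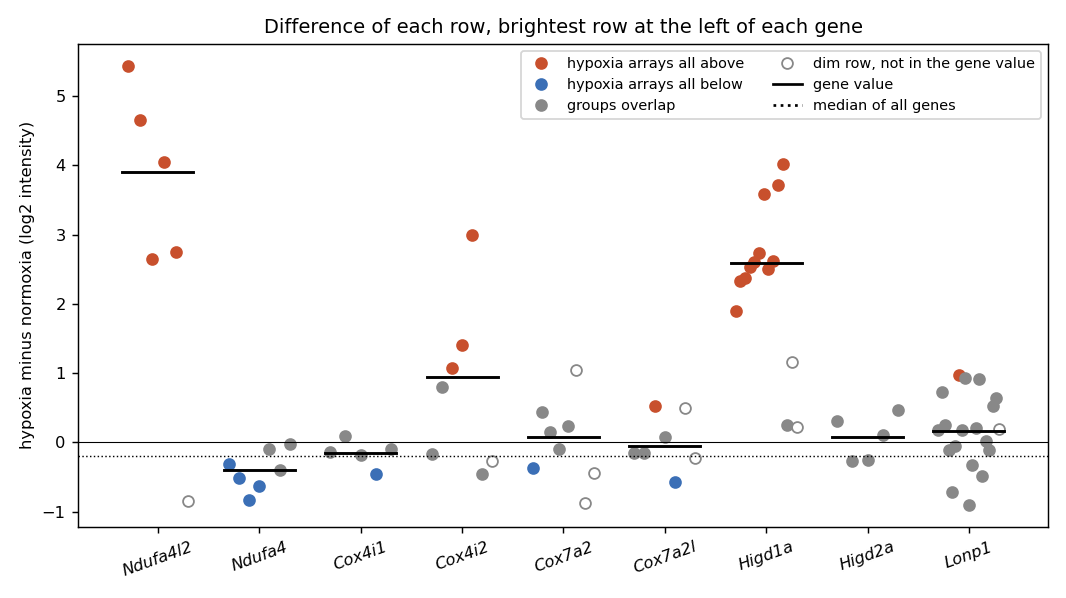
Hypoxia minus normoxia difference in log2 intensity (vertical axis) of each of the 78 rows, by gene and from bright at the left to dim at the right, with open circles for rows left out as dim, black bars for the gene value and a dotted line at the median of all genes, -0.19. Orange rows (21) had all hypoxia arrays above and blue rows (7) all below.

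The extremes across rows were spread over the arrays. Over the 68 kept rows, hypoxia array 1 was the lowest of its group in 22 and the highest in 13, and hypoxia array 4 was the highest in 27. In normoxia, array 2 was the highest in 26 rows and array 1 the lowest in 23.

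Near the brightness threshold, the rows just outside were 1 each of Higd1a, Cox7a2 and Lonp1, with row means of 2.21, 2.25 and 2.29 and differences of 1.16, 1.04 and 0.19. Those just inside were of Higd1a, Cox4i2 and Lonp1, with row means of 2.60, 2.65 and 2.77 and differences of 0.25, -0.46 and 0.64. Without any brightness threshold, the difference of Ndufa4l2 was 3.11, that of Higd1a 2.33 and that of Cox4i2 0.77. With rows above the 75th percentile only, that of Cox4i2 was 0.57.

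The genes nearest in pattern were found by the mean absolute difference over the 8 arrays, after each gene's normoxia mean was subtracted, among 14848 genes with at least 3 rows. For Ndufa4l2 they were Mt2, a metallothionein (0.448), Bnip3, a mitophagy receptor (0.496), the HIF prolyl hydroxylase Egln3 (0.773), the pyruvate dehydrogenase kinase Pdk1 (0.842), Higd1a (0.865) and Penk, which encodes proenkephalin (0.874). All 6 had a smaller difference than Ndufa4l2, of 2.44 to 3.40. For Cox4i2 the nearest were the glucose transporter Slc2a3 (0.143), 5430401F13Rik (0.160), Phf7 (0.173), the growth factor Vegfa (0.175), Unc13a (0.178) and Cpb1 (0.180), with differences of 0.66 to 1.00. The values were not scaled, so the distance depends strongly on the size of each gene's difference. The rankings share arrays and array noise and are descriptions only.

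Other genes of the pathway were taken from lists and are given with the adjusted p of the limma fit over all genes. The lists too were drawn up with earlier results of these data known, so their counts and p-values, those of the HIF targets included, are not independent evidence. Among all genes tested, 0.531% were called higher and 0.796% lower. Among 12 other complex IV subunits tested, 0 were called in either direction (lowest adjusted p = 0.109), and 1 was lower at an unadjusted p under 0.05. Their median difference was -0.17, beside -0.19 for all genes. Ratios of other tissue-restricted isoforms of complex IV were computed as well. The log2 ratio of the muscle form Cox6a2 to Cox6a1 changed by -0.24 ± 0.32 (SE), that of the testis form Cox6b2 to Cox6b1 by 0.27 ± 0.16, and that of the muscle form Cox8b to Cox8a by -0.12 ± 0.30, all with overlapping groups. Cox8b had means of 3.02 in normoxia and 2.61 in hypoxia from 2 rows, below the 95th percentile of receptor rows in both groups, so its ratio says nothing about a change in its transcript.

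Among 23 assembly factors of complex IV, 0 were called (lowest adjusted p = 0.067), while 9 were lower and 0 higher at an unadjusted p under 0.05, and the median was -0.36. Among 13 Ndufa subunits of complex I, 0 were called (lowest adjusted p = 0.0974), with 6 lower and 0 higher at the unadjusted level and a median of -0.27. At that level 20.4% of all genes were lower and 3.02% higher. The other HIG1 family genes were not called, with a difference of 0.03 ± 0.34 (SE, adjusted p = 0.965) for Higd1b and -0.27 ± 0.33 (SE, adjusted p = 0.64) for Higd1c. Both lay below the 95th percentile of receptor rows in both groups, with means of 3.08 and 3.11 for Higd1b and of 3.05 and 2.78 for Higd1c, so a change in either could not be assessed.

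Of 17 mitochondrial proteases and chaperones other than Lonp1, 1 was called lower and 0 higher, with a median of -0.22. Among all genes 0.796% were called lower and 0.531% higher. Parl, a rhomboid protease of the inner membrane, read 5.39, 5.55, 5.66 and 5.62 in normoxia and 4.97, 4.74, 4.85 and 4.67 in hypoxia. All hypoxia arrays were lower, by a mean of 0.75 on the log2 scale (difference -0.75 ± 0.12, SE, adjusted p = 0.0301). Over the 16 alternatives its adjusted p ran from 0.00969 to 0.268, and the call was held in 5 of them. Of the 8 analyses that left out an array it was lost in 7, all but the one without hypoxia replicate 1.

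Of 8 HIF targets that act on or around mitochondria, 6 were called higher and 0 lower, with a median of 1.58. Among all genes 0.531% were called higher and 0.796% lower. Bnip3 rose by 3.40 ± 0.16 (SE, adjusted p = 2.2e-05), Egln3 by 2.75 ± 0.14 (adjusted p = 2.59e-05) and Pdk1, which restrains pyruvate entry into the citric acid cycle, by 2.44 ± 0.11 (adjusted p = 2.2e-05). Egln3 and Pdk1 had normoxia means of 2.39 and 2.90, below the 95th percentile of receptor rows (3.33). Their rises thus start from a level not distinguished from background. The lactate transporter Slc16a3 rose by 2.02 ± 0.15 (adjusted p = 0.000288), the lactate dehydrogenase Ldha by 1.14 ± 0.11 (adjusted p = 0.00122) and the mitophagy receptor Bnip3l by 1.13 ± 0.14 (adjusted p = 0.00925). The other 2 were not called, Mxi1 with 0.55 (adjusted p = 0.0565) and Fundc1 with -0.17 (adjusted p = 0.422). All 4 hypoxia arrays exceeded all normoxia arrays for the 6 called genes and for Mxi1, as they did for 1.87% of all genes. Ldha was not called on relative ranks, and Bnip3l neither there nor with the replicate block.

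**Figure D5:**
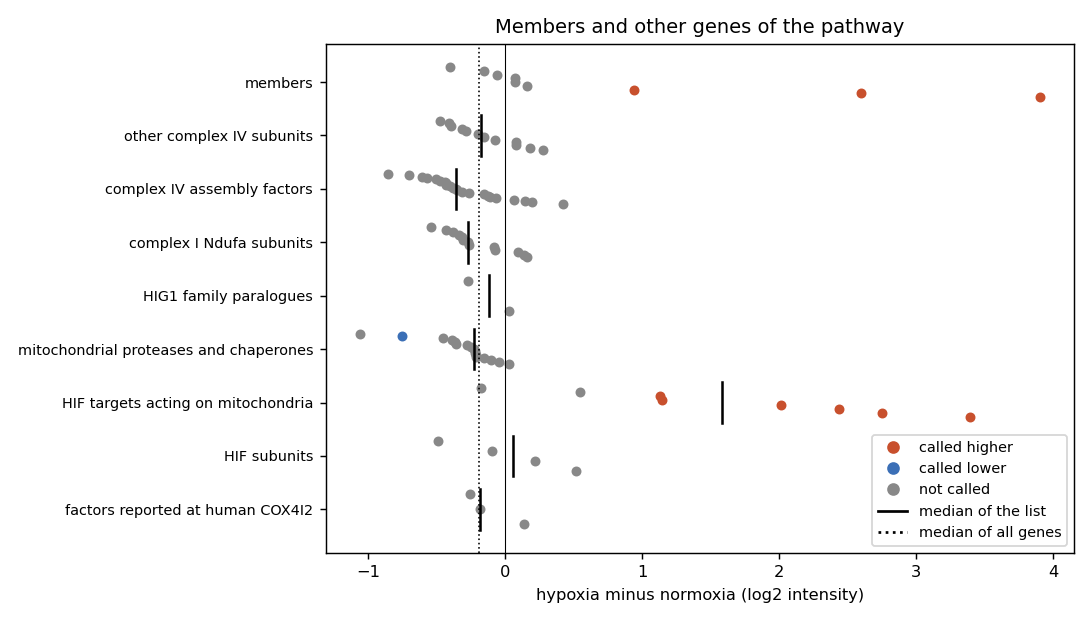
Hypoxia minus normoxia difference in log2 intensity (horizontal axis) of the 9 described genes (top row, members) and of the other pathway lists (vertical axis), with orange for genes called higher, blue for called lower, black bars at list medians and a dotted line at the median of all genes. The HIF targets had 6 of 8 genes called higher, the proteases and chaperones 1 lower, and the remaining lists none.

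The subunits of HIF itself were not called. Hif1a differed by 0.52 ± 0.13 (SE, adjusted p = 0.0814), Epas1 by -0.49 ± 0.19 (adjusted p = 0.169), Arnt by -0.09 ± 0.12 (adjusted p = 0.667) and Hif3a by 0.22 ± 0.21 (adjusted p = 0.546). Of the factors reported at the human COX4I2 promoter, Rbpj differed by 0.14 ± 0.13 (SE, adjusted p = 0.545), Cxxc5 by -0.18 ± 0.14 (adjusted p = 0.456) and Chchd2 by -0.25 ± 0.12 (adjusted p = 0.231), and none was called.

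Ndufa4l2 and Cox4i2 are known as genes of pericytes and other mural cells, so the markers of such cells are given beside them. The 10 fibroblast markers were all above the 95th percentile of receptor rows. Their summed intensity was 12.09 to 12.14 on the log2 scale in normoxia and 12.01 to 12.11 in hypoxia, with 0 called. Such sums follow the brightest markers and can hide changes in dimmer ones. At an unadjusted p under 0.05, 3 fibroblast markers were higher and 0 lower, and 2 had all hypoxia arrays above. At that level 3.02% of all genes were higher and 20.4% lower. Of 10 pericyte and mural markers, 1 was called lower (Mcam, -0.78 ± 0.13, SE, adjusted p = 0.0373) and 0 higher. Their summed intensity was 8.75 to 8.87 in normoxia and 8.48 to 8.79 in hypoxia, and at the unadjusted level 3 were lower and 1 higher. Of these 10 markers, 3 (Kcnj8, Abcc9 and Vtn) had normoxia means of 3.16, 3.09 and 3.11, below that percentile. The other 7 lay above it in normoxia, from 3.55 for Rgs5 to 7.56 for Cd248, while Rgs5 in hypoxia was 3.21, below the 3.22 of that group. Gene values average only rows that passed the brightness filter, whereas the percentile is of single rows without a filter. A gene value above it is therefore not read as detection. Of the 10 differences, 8 were negative. In 1 marker, the peptidase Anpep, all hypoxia arrays were above all normoxia arrays. Its difference was 0.69 ± 0.14 (SE), and it was not called (adjusted p = 0.0565). In 3 markers all hypoxia arrays were below, Mcam and 2 that were not called. These were Pdgfrb (-0.64 ± 0.14, adjusted p = 0.0627) and Kcnj8 (-0.76 ± 0.18, adjusted p = 0.0748). Among all genes 1.87% had all hypoxia arrays above and 14.5% all below. The 6 smooth muscle markers had sums of 10.79 to 10.90 in normoxia and 10.30 to 10.43 in hypoxia, with 0 called. All 6 differences were negative, 5 were lower at the unadjusted level, and 4 markers had all hypoxia arrays below. The 10 striated muscle markers had sums of 7.03 to 7.45 and 6.73 to 7.09, with 0 called. Of these, 3 were lower and 0 higher at the unadjusted level. The 6 epithelial, 6 endothelial, 6 blood and macrophage and 5 brown fat markers had 0 called in either direction. At the unadjusted level 1 epithelial marker was lower, and the other 3 lists had 0 in either direction. Among all genes 0.531% were called higher and 0.796% lower. Over all these lists of other cells, 0 markers were called higher in hypoxia. By their mean over all arrays, some markers lay at or below 3.33, the receptor percentile in normoxia. These included 5 striated muscle, 2 epithelial, 4 endothelial, 1 blood and macrophage and 3 brown fat markers. For such markers the lack of a call says little. Whether a shift in cell types has a part in the differences was not tested.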

How the data were processed

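The deposited table held linear signal intensity values for 641130 probe sets (rows) on 8 arrays, 4 per group. Per the labels, 50 ng of total RNA was amplified and biotin-labelled. The methods name several probe set summaries that the authors compared (RMA, FARMS, DFW and PLIER) and relative ranks for single probes, but which of these, if any, made the deposited values is not stated in them. Labels and methods differ in the number of replicates, and the labels (4) were followed. Rows were named through the platform annotation, with older symbols updated through RefSeq. Of all rows, 307991 named 1 gene, 7047 several and 326092 none. The files name no build, so rows carry no coordinates here.

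Deposited values were log2-transformed without a pseudocount or further normalization. A gene's value was the mean over rows that named it alone and whose mean reached the median of all rows (2.36 on the log2 scale), which left 191376 rows and 18848 genes (median 7 rows). Dim rows carry most background, and averaging over exons hides exon use. The test was limma 3.58.1 (R 4.3.3; two-sided moderated fit of lmFit and eBayes), with Benjamini-Hochberg adjustment over all genes at 0.05. Signed values are hypoxia minus normoxia. The SE of a gene difference is that of the limma fit, and the SE of a ratio change is from the pooled group SD without moderation. The number of arrays limits precision, and the sources name no batch. The steps were tested on simulated data. Alternatives covered scaling, the filter, the summary over rows, the test, a replicate block and leaving out each array. The members and gene lists were chosen with earlier results of these data known. Named from the lists were all called genes, all genes of lists of up to 4, the complex IV isoform pairs and the 6 nearest patterns. Mxi1, Fundc1, Kcnj8, Abcc9, Vtn, Rgs5, Cd248, Anpep and Pdgfrb were named after their values were seen.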

Additional observations from a re-analysis of the deposited data

Results flagged for a closer look

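In 7 of the 46 groups of 4 arrays examined, 1 array stood apart from the others by Dixon's test. Chance alone gives about 1 in 20. Normoxia array 2 was high for Ndufa4, at 8.4306 beside 8.15 for the next, and for Bnip3l, at 7.0997 beside 6.66. Normoxia array 1 was low for Cox4i1, at 7.9991 beside 8.15, and high for the log2 ratio of Higd1a to Higd2a, at 0.5753 beside -0.15. Normoxia array 3 was low for Pdk1, at 2.6939 beside 2.94. Hypoxia array 1 was high for the log2 ratio of Cox4i2 to Cox4i1, at 1.6141 beside 0.98, and hypoxia array 2 for that of Cox6b2 to Cox6b1, at 0.7304 beside 0.18.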

How the results depend on the processing

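No result reversed its direction past the spread between arrays. Among the 9 gene differences, those of Ndufa4l2, Cox4i2, Higd1a and Lonp1 stayed positive and that of Ndufa4 stayed negative in all 14 alternatives on the log2 scale, while Cox4i1, Cox7a2, Cox7a2l and Higd2a had both signs. The Ndufa4l2 to Ndufa4 ratio change was 3.52 without the brightness filter and 4.07 to 4.47 when an array was left out. The Cox4i2 to Cox4i1 change was 0.73 with the stricter filter, 1.49 with the median over rows and 0.92 to 1.23 when an array was left out. That of Higd1a to Higd2a was 3.13 with the median over rows and 2.39 to 2.72 when an array was left out, and that of Cox7a2l to Cox7a2 ran from -0.48 (without hypoxia replicate 2) to 0.00201 (without hypoxia replicate 4). Cox8b to Cox8a had no value with the stricter filter.

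Counts depended on the processing. The 100 genes higher became 217 without a filter, 40 on relative ranks and 52 to 68 when an array was left out. The 150 genes lower became 45 with quantile normalization, 8 with centred arrays, 259 without a filter, 234 with a stricter one, 25 with the median over rows, 18 on relative ranks, 403 with an intensity trend and 7 to 38 when an array was left out. The share of higher calls was 40% as deposited, 73.5% with quantile normalization and 94.6% with centred arrays, where the median of all genes was -0.11 and -0.003 in place of -0.19. Of the other pathway genes, the 6 higher ranged from 4 to 8, and the 1 lower (Parl) became 0 with centred arrays or relative ranks, 3 without a filter, 5 with an intensity trend and 0 to 1 when an array was left out. The cause of these changes was not tested.

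Replicates of the same number did not deviate together (correlations of -0.115 to 0.0724, and only replicate 3 correlated best with its own number). The labels do not say whether equal numbers pair the dishes, and these correlations cannot settle it. With the replicate number as a block, 34 genes were higher, 3 lower, and 0 of the other pathway genes lower. Signal over background limits Ndufa4l2, Egln3 and Pdk1 in normoxia and the dim rows of Cox4i2.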
